A study of Mus musculus with 4 samples.

Results

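Melanin is made in pigment cells, which in the eye are the retinal pigment epithelium behind the neural retina and the melanocytes of the choroid and iris. Both layers of the optic cup have a common origin, and its outer layer becomes the pigment epithelium. The 10 genes described here were chosen by what they are known to do. They were the melanin synthesis enzymes Dct, Tyr and Tyrp1, the melanosome genes Mlana, Oca2 and Slc45a2, the transcription factor Mitf, and the pigment epithelium genes Rpe65, Best1 and Ttr. They were found by gene name on the array and came to 13 probes of 55681, or 10 of 35715 gene names.

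The samples were retinas grown in floating culture from mouse induced pluripotent stem cells that carry a green fluorescent reporter of the rod gene Nrl (3D-retinas). Optic cups with bright fluorescence were picked with tweezers, so that the samples were selected on the reporter's signal. They were given their treatment on day 23 of differentiation and harvested on day 25, which the submitters gave as the onset of degeneration. The 4 groups received 4-OHT (the usual short form of 4-hydroxytamoxifen, at 5 µM) plus vitamin E at 400 µM, 4-OHT as before with lutein at 200 nM, 4-OHT by itself, or the ethanol vehicle. Each group was 1 pool of 24 3D-retinas from the same Nrl-GFP line, read on 1 one-colour Cy3 array. With 1 array per group no difference has a replicate check, no test was possible, and a 2-fold difference served as a fixed limit of size. Levels are log2 intensities minus the log2 of the array's 75th percentile, which was an intensity of 544 with vitamin E, 551 with lutein and 498 with 4-OHT alone, against 565 in vehicle, and differences are between such levels. Intensities are given as read, before this scaling. The only measured error is that between repeated spots of a probe on an array. Its SD for a log2 difference between 2 arrays was 0.161 to 0.192, and 0.264 to 0.309 for probes under an intensity of 300. Of 399 probes with at least 10 spots, only those well above background on an array were used. These were 260 to 266 per array, and 74 to 89 per array under an intensity of 300. All 4 arrays lay on 1 slide with 1 scan, where group and place on the slide cannot be told apart. Between 51.3% and 54.5% of the 59305 gene spots of an array were well above background by the scanner's own call, and none was saturated.

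Tyrosinase (Tyr) starts melanin synthesis by oxidising tyrosine, and Dct (dopachrome tautomerase) and Tyrp1 (tyrosinase-related protein) act on later intermediates inside the melanosome. Mitf is the basic helix-loop-helix leucine-zipper factor that switches these enzyme genes on in melanocytes and pigment epithelium. Rpe65, the retinoid isomerase of the visual cycle, and Best1, an anion channel, belong to mature pigment epithelium.

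Dct was the only member at least 2-fold away from vehicle, and it was so on each of the 3 arrays with 4-OHT. Tyr, Tyrp1 and Mitf were detected on all 4 arrays and stayed within 2-fold in all 6 comparisons. Rpe65, Best1, Mlana and Slc45a2 did not pass background on any array. Oca2 was detected on the lutein array alone and Ttr on the vitamin E array alone.

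In counts, 1 of 4 measured members passed 2-fold upward and 0 downward with 4-OHT against vehicle, where 6.14% of 15039 genes with a RefSeq symbol were higher and 3.44% lower. With vitamin E against 4-OHT 0 of 5 were higher and 0 lower, where 1.45% of all genes were higher and 5.64% lower. With lutein against 4-OHT 0 of 5 were higher and 0 lower, where the shares of all genes were 0.894% and 1.7%. With vitamin E against vehicle 1 of 5 was higher and 0 lower (all genes 1.11% and 1.3%), and with lutein against vehicle 1 of 5 was higher and 0 lower (3.42% and 1.51%). With vitamin E against lutein 0 of 6 were higher and 0 lower (0.384% and 2.91%). A member counted as measured only where a probe passed background on either array, so that these counts leave out the members that were at background.

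**Figure D1:**
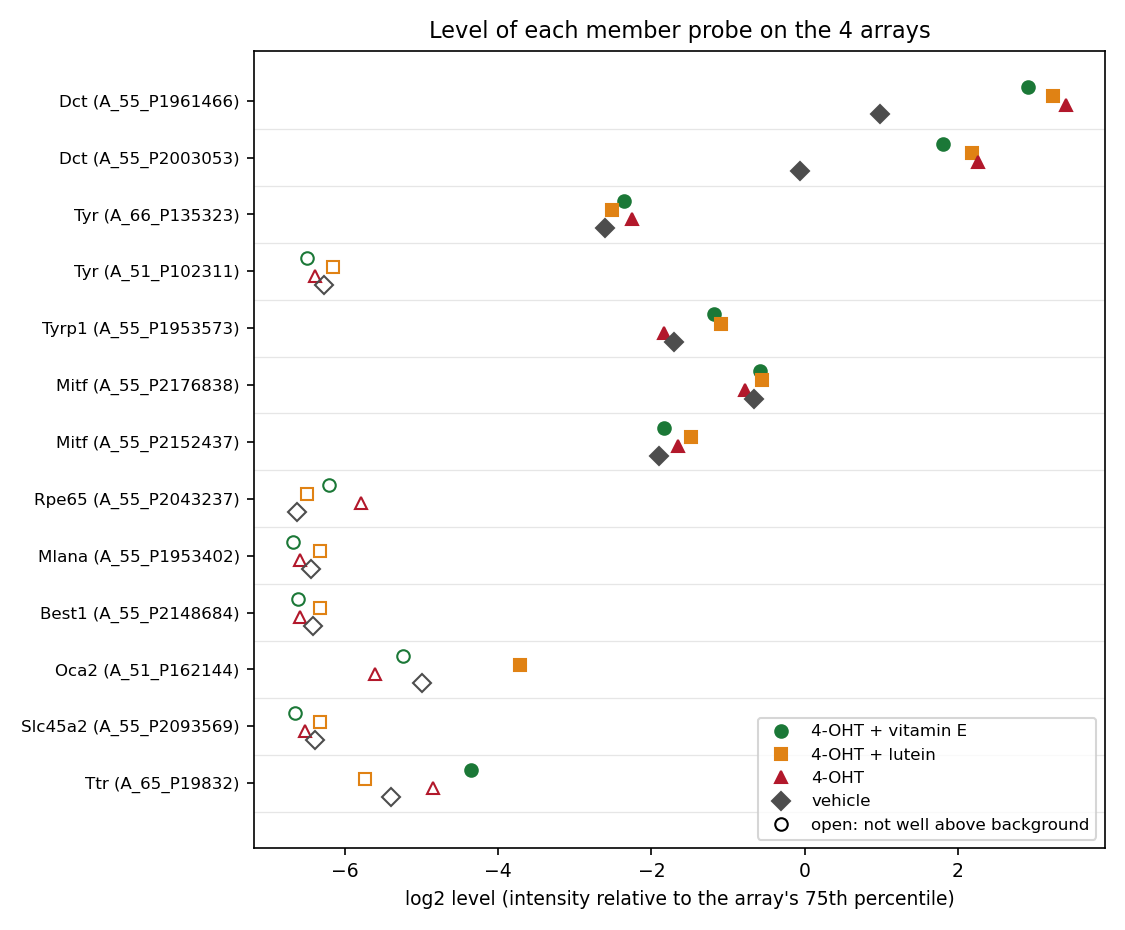
Level of each of the 13 probes on each of the 4 arrays, as log2 intensity relative to the array's 75th percentile (horizontal axis), with 1 row per probe and 1 symbol per group; open symbols were not well above background. The 3 arrays with 4-OHT lie well to the right of vehicle for both Dct probes, whereas the symbols of Tyr, Tyrp1 and Mitf lie close together and those of Rpe65, Best1, Mlana and Slc45a2 are all open.

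The Dct signal came from 2 probes on the minus strand at chr14:118412029-118412088 and chr14:118412013-118412072 (mm9, as the array design gives it), which start at positions 2186 and 2202 of the transcript. They share 44 bases, so their values are repeated readings of nearly the same target and not independent. Part of that shared stretch is shown because the Dct result rests on it.
Dct shared stretch: acggtcaaagtaaggtgtggctagttatat

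The first Dct probe had intensities of 4116 with vitamin E, 5200 with lutein and 5307 with 4-OHT alone, against 1120.4 in vehicle. The second had 1896, 2500 and 2391 on the same 3 arrays, against 541 in vehicle. On both probes the 3 arrays with 4-OHT were high and vehicle was low, with no value between the groups. Against vehicle, the log2 difference of the first probe was 1.93 with vitamin E (3.81-fold), 2.25 with lutein (4.76-fold) and 2.43 with 4-OHT alone (5.37-fold). The second probe gave 1.86, 2.24 and 2.32 in the same order of groups. These 3 comparisons share the vehicle array. In pooled tissue, fewer cells of a type and less RNA per cell cannot be told apart.

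With vitamin E, Dct was lower than with 4-OHT alone by 1.41-fold on the first probe (log2 difference -0.49) and had a log2 difference of -0.46 on the second. With lutein the differences from 4-OHT alone were -0.18 and -0.08. The vitamin E differences exceeded the spot SD of 0.178 and fell short of 2-fold. The lutein differences were close to their SD of 0.17 or under it. Against lutein, vitamin E had differences of -0.32 and -0.38, beyond the spot SD of 0.161. The scaled log2 level of both probes was highest with 4-OHT alone (3.41 and 2.26), then with lutein (3.24 and 2.18) and vitamin E (2.92 and 1.80), and lowest in vehicle (0.99 and -0.06).

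Tyr was read by 2 probes on the minus strand of chromosome 7 that gave different answers. The probe at chr7:94632414-94632473 (mm9, from position 954 of the transcript) was well above background on every array, and the probe at chr7:94576265-94576324 (from position 2897), printed on 10 spots, on none. The detected probe is shown whole beside the first bases of the undetected one.
Tyr detected probe: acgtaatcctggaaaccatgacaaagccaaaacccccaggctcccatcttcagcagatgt
Tyr undetected probe: tactctgctacctagcatgtatatataaat

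The detected Tyr probe had an intensity of 106 with vitamin E, 96.4 with lutein and 105 with 4-OHT alone, against 93.0 in vehicle. The 10 spots of the other probe had medians of 6.24, 8.06 and 6.15 on those arrays, against 7.54 in vehicle, with 0 of 10 well above background on each. The log2 differences of the detected probe from vehicle were 0.24 with vitamin E, 0.09 with lutein and 0.36 with 4-OHT alone, and of these the last exceeded its dim-probe spot SD of 0.309. From 4-OHT alone, the Tyr differences were -0.11 with vitamin E and -0.27 with lutein, both under the dim-probe SDs of 0.286 and 0.275. The 4 arrays lay close together, and each of these values is 1 spot.

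Tyrp1 was read by 1 probe at chr4:80497524-80497583 on the plus strand (mm9). It had an intensity of 240 with vitamin E, 259 with lutein and 140 with 4-OHT alone, against 174 in vehicle. Both arrays with a supplement were high, and 4-OHT alone was the lowest. Tyrp1 stood 1.57-fold above 4-OHT alone with vitamin E (log2 difference 0.65) and 1.68-fold higher with lutein (0.75), both beyond the dim-probe spot SDs of 0.286 and 0.275 and both short of 2-fold. Against vehicle it was 1.43-fold higher with vitamin E (0.52), 1.53-fold higher with lutein (0.61) and had a log2 difference of -0.13 with 4-OHT alone. The arrays with vitamin E and with lutein had a difference of -0.09, under the dim-probe SD of 0.264. Dct had its lowest level in vehicle and Tyrp1 with 4-OHT alone. For Tyrp1, the difference between 4-OHT alone and vehicle was under the dim-probe SD of 0.309.

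Mitf had 2 probes on the plus strand of chromosome 6, at chr6:97971229-97971288 and chr6:97968501-97968560 (mm9). The brighter had an intensity of 363 with vitamin E, 375 with lutein and 291 with 4-OHT alone, against 358 in vehicle. The dimmer had 153, 197 and 159 on those arrays, against 151 in vehicle. The probes ordered the arrays differently, and for 4-OHT against vehicle they had opposite signs, with log2 differences of -0.12 and 0.26, both under the dim-probe spot SD of 0.309. Against vehicle the 2 probes gave 0.07 and 0.07 with vitamin E and 0.10 and 0.42 with lutein, of which the last exceeded its dim-probe SD of 0.289. From 4-OHT alone they gave 0.19 and -0.19 with vitamin E and 0.22 and 0.16 with lutein. No Mitf value was 2-fold from another on either probe.

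**Figure D2:**
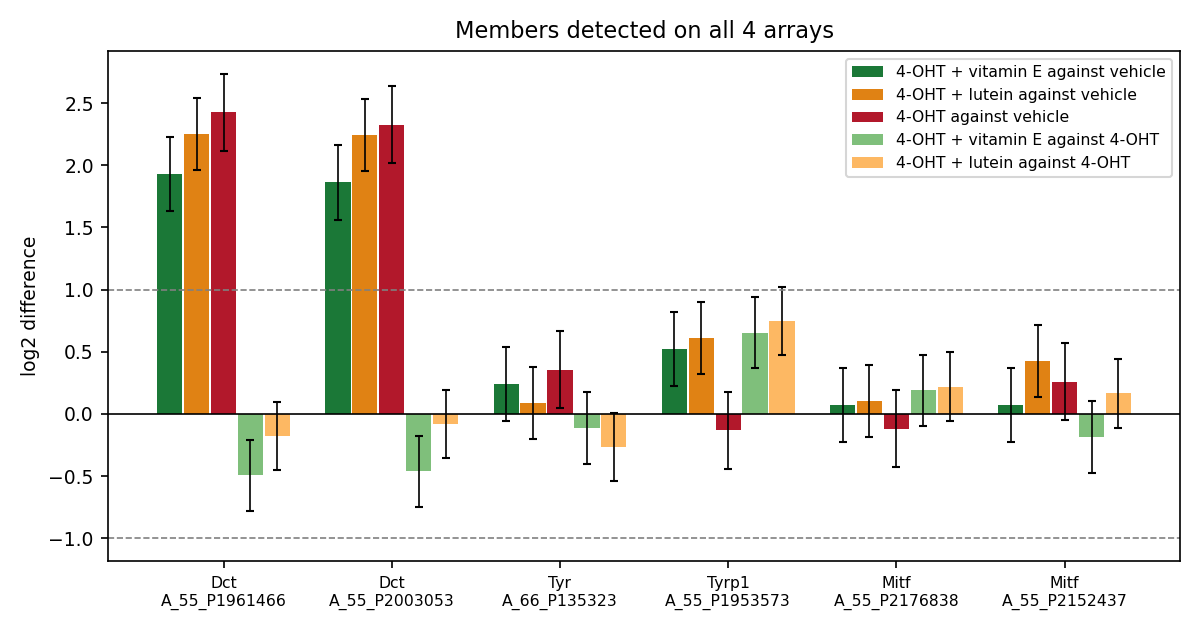
Log2 difference (vertical axis) of each probe detected on all arrays, from 4 members, for 5 comparisons shown as coloured bars from 0. Error bars are the spot SD for dim probes and dashed lines mark 2-fold. The 3 comparisons of Dct with vehicle pass 2-fold on both probes, and no bar of Tyr, Tyrp1 or Mitf does.

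Melanosome genes gave little signal. Mlana, a melanosomal membrane protein, had intensities of 5.30, 6.89 and 5.19 with vitamin E, lutein and 4-OHT alone, against 6.49 in vehicle, and Slc45a2, a melanosomal transporter, had 5.40, 6.87 and 5.43, against 6.72 in vehicle. None of these 8 values was well above background. Their probes lie at chr19:29782737-29782796 and chr15:10958929-10958988 (mm9). Oca2, a melanosomal membrane protein read at chr7:63791667-63791726, had 14.4 with vitamin E, 42.1 with lutein and 10.2 with 4-OHT alone, against 17.8 in vehicle, and of these only the lutein value was well above background. With lutein it was thus at least 1.60-fold higher than with 4-OHT alone, and at least 1.48-fold higher than in vehicle, and with vitamin E it was at least 1.78-fold lower than with lutein. The value is 1 spot on 1 array.

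The pigment epithelium genes were also near background. Rpe65 had intensities of 7.38, 6.10 and 9.03 with vitamin E, lutein and 4-OHT alone, against 5.74 in vehicle, and Best1 had 5.56, 6.87 and 5.18, against 6.58 in vehicle. Neither was well above background on any array, at chr3:159287714-159287773 for Rpe65 and chr19:10071517-10071576 for Best1 (mm9). Ttr, a carrier of thyroid hormone and of retinol-binding protein made by pigment epithelium and choroid plexus, had 26.7 with vitamin E, 10.3 with lutein and 17.2 with 4-OHT alone, against 13.4 in vehicle, and of these only the vitamin E value was well above background. With vitamin E its bound was 1.03-fold above 4-OHT alone, a log2 difference of 0.04 that lay under the dim-probe spot SD of 0.286. No fold is given against lutein or vehicle, because 26.7 lies under the lowest signal well above background on those arrays. The vitamin E value is 1 spot on 1 array.

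The 4 members detected on all 4 arrays had median log2 differences of 0.12 for 4-OHT against vehicle, 0.38 for vitamin E against vehicle and 0.36 for lutein against vehicle. The medians of all genes with a RefSeq symbol were -0.12, 0.00 and -0.02. For vitamin E against 4-OHT the members' median was 0.04 and that of all genes 0.16, for lutein against 4-OHT 0.02 and 0.12, and for vitamin E against lutein -0.06 and 0.04.

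The genes whose differences from vehicle lay nearest to Dct's over the 3 comparisons, by Euclidean distance on the log2 scale among 13785 genes detected on all 4 arrays, were Uap1l1 (0.433), Egln3 (0.539) and Gm4980 (0.649). For Tyrp1 they were Pole2 (0.056), Kdelc2 (0.11) and Gbx2 (0.148), for Tyr Nop9 (0.032), Pgm1 (0.06) and Smpd4 (0.071), and for Mitf Dedd (0.011), Rit1 (0.019) and Arhgef12 (0.02). Within a distance of 0.5 lay 1 gene for Dct, 548 for Tyrp1, 3997 for Tyr and 7119 for Mitf.

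Mitf binds the letters CATGTG within a longer motif, the M-box, in promoters of pigment genes. The 250 bases before the transcription start of the melanin enzyme genes are shown because each of them holds CATGTG. They are from RefSeq (GRCm38.p6), 5′ to 3′ on the gene's own strand, with CATGTG or its reverse complement in capitals. The windows lie at chr14:118052247-118052496 (minus strand), chr7:87493513-87493762 (minus strand) and chr4:80833963-80834212 (plus strand).
Dct promoter: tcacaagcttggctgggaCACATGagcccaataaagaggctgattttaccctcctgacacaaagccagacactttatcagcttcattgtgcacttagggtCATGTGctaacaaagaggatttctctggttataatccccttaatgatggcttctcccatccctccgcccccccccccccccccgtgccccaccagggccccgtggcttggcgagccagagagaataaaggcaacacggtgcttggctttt
Tyr promoter: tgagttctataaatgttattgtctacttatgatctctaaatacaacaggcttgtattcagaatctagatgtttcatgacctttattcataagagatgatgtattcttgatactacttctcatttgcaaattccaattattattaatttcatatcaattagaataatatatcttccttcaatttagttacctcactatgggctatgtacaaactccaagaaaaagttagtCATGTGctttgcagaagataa
Tyrp1 promoter: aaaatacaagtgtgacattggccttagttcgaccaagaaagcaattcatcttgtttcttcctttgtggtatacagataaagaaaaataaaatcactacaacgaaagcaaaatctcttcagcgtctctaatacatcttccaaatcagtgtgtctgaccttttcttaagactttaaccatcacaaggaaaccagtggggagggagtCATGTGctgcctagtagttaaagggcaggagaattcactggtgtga

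Dct held CATGTG at 150 bases before the start and its reverse complement at 232. Tyr held it at 21 and Tyrp1 at 46, and in both it lay inside the longer motif AGTCATGTGCT, as read from the Tyr window, which began 24 and 49 bases before the start. Around its CATGTG at 150, Dct read GGTCATGTGCT, which differs from that motif in the first letter only and was not counted as a match. Searching both strands of all 32851 windows of 300 bases (250 before to 50 after the start), CATGTG was found in 14.2%, CACGTG in 7.15% and AGTCATGTGCT in 0.0213%, and the first motif's letters are part of the last. Of 9 windows of 7 members that had one, 5 held CATGTG, 0 held CACGTG and 2 held AGTCATGTGCT. The Tyr window's match to the last was fixed in advance, because the motif was read from that window. These are letter matches only.

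Beyond the members, other genes of melanosomes and pigment mostly stayed within 2-fold with 4-OHT. On a list of 29, 25 were measured, of which 4 lay 2-fold or more above vehicle (6.14% of all genes) and 1 below (3.44%). The median log2 difference was -0.11, against -0.12 for all genes. The counts moved with the setting, to 4 above and 3 below on quantile normalization, 3 and 2 on spike-in scaling, and 2 and 0 on normexp background. Cd63, a tetraspanin of melanosomes and lysosomes, had intensities of 54976 with vitamin E, 89200 with lutein and 87110.0 with 4-OHT alone, against 34830.0 in vehicle, giving 2.84-fold for 4-OHT over vehicle. Slc7a11, a cystine importer that affects coat pigment in mice, had 129 with lutein and 128 with 4-OHT alone, and stayed at background with vitamin E and in vehicle, so that it was at least 5.00-fold higher with 4-OHT than in vehicle. Hps1, a subunit of a complex of melanosome biogenesis, had 108, 123 and 111 with vitamin E, lutein and 4-OHT alone, against 52.8 in vehicle, and its other probe was well above background on 0 arrays.

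Trpm1, a cation channel of melanocytes and bipolar cells, was 2.03-fold above vehicle with 4-OHT on the probe that stood for it, while another probe, well above background in vehicle alone, bounded the log2 difference at -0.40 and a further probe was well above background on 0 arrays. Slc24a4, a cation exchanger related to a melanosomal one, was the gene that was lower, with a log2 difference of -1.16. Pmel, the fibril protein of melanosomes, and Slc24a5, a melanosomal cation exchanger, both named after their values were seen, had log2 differences of -0.30 and -0.39. With vitamin E 1 gene of the list passed 2-fold above 4-OHT alone and 2 below it (1.45% and 5.64% of all genes). With lutein the counts were 0 and 0 (0.894% and 1.7%). On normexp background the vitamin E counts were 0 and 2.

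**Figure D3:**
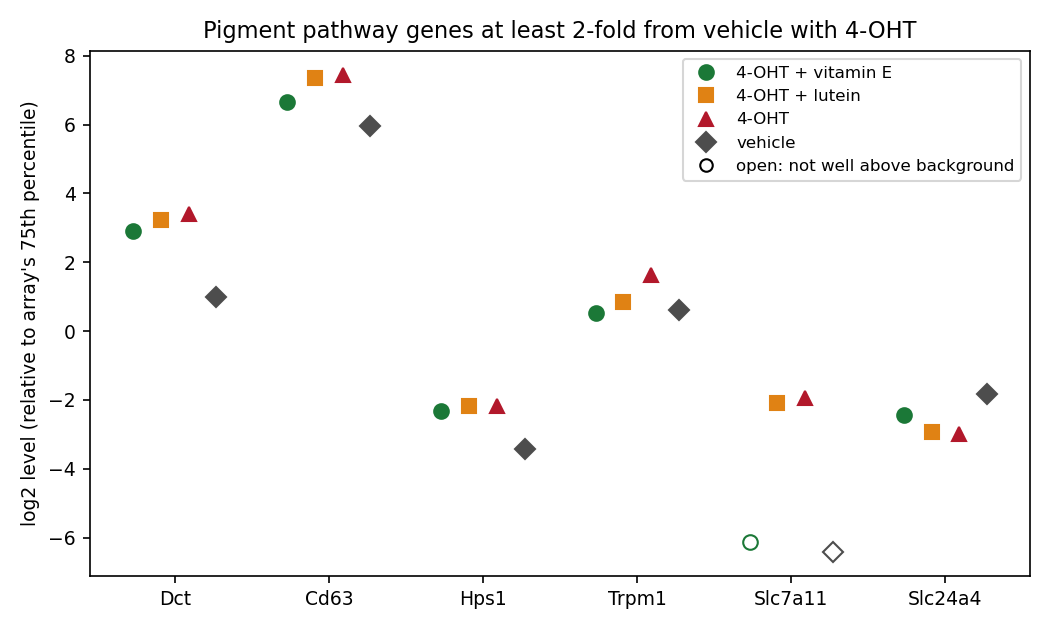
Log2 level relative to the array's 75th percentile (vertical axis) of Dct and of the 5 other pigment genes that differed at least 2-fold from vehicle with 4-OHT, with 1 symbol per group and open symbols for values not well above background. Slc7a11 is open with vitamin E and in vehicle, and Slc24a4 has its highest level in vehicle.

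Genes of pigment epithelium beyond the members were also mixed. Of 29 measured of 38 on the array, 5 passed 2-fold above vehicle with 4-OHT (6.14% of all genes) and 1 below (3.44%). The list had a median log2 difference of 0.15. On spike-in scaling 5 lay above and 2 below, with a median of 0.00, and on normexp background 3 lay above and 0 below. Itgav, an integrin subunit used in taking up outer segments, had 138, 240 and 284 with vitamin E, lutein and 4-OHT alone, against 106 in vehicle (3.04-fold higher with 4-OHT), and its other probe had a log2 difference of 1.19. Rdh5, a retinol dehydrogenase of the visual cycle, had 1670, 2270 and 2006, against 937 in vehicle (2.43-fold higher with 4-OHT). The receptor Lgr5 and the factor Sox9 had log2 differences of 1.30 and 1.26, and Slc16a8, the pigment epithelium lactate transporter, was lower at -1.40. Lrat, Rgr, Cldn19 and Mertk, all of mature pigment epithelium, stayed at background throughout.

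Over the 21 pigment epithelium markers on the array, members included, 10 were detected on all 4 arrays and 8 on none. Rpe65, Best1, Lrat and Rgr were among those detected on none, and Rlbp1, Rdh5, Rrh, Stra6, Slc16a8 and Pmel among those detected on all. The markers were thus mixed, and the name stands here for a group of genes and not for cells. The markers' summed level, in units of the array's 75th percentile, was 21.5 with vitamin E, 25.0 with lutein and 25.0 with 4-OHT alone, against 13.8 in vehicle. Most of that difference lay in Dct and Rdh5, since the markers without this pair summed to 10.9 with vitamin E, 11.4 with lutein and 10.3 with 4-OHT alone, against 10.2 in vehicle. Of 11 measured markers 2 lay 2-fold or more above vehicle with 4-OHT (6.14% of all genes) and 1 below (3.44%). The median log2 difference was -0.12, as for all genes.

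Among factors of the Mitf family and those that act with it, 12 of 15 were measured with 4-OHT against vehicle. Of these 2 passed 2-fold upward (6.14% of all genes) and 0 downward (3.44%), and the median was 0.29, while on normexp background 1 passed upward. The repressor Bhlhe40 had a log2 difference of 2.63 and Sox9 of 1.26, and Mitf itself, a member of the list, lay at -0.12. Tfec, Pax3 and Otx1 were not well above background on the 4-OHT or the vehicle array. Pax3 and Otx1 were detected on no array, and Tfec with vitamin E alone, at a log2 difference of at least 1.14 from vehicle.

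Markers of other cell types were read on the same arrays, where with 4-OHT against vehicle 6.14% of all genes were higher and 3.44% lower. Of 9 measured melanocyte and neural crest markers 1 passed 2-fold above vehicle with 4-OHT and 0 below. It was the endothelin receptor Ednrb, with log2 differences of 1.01 and 1.62 on its probes, and on quantile normalization, spike-in scaling or normexp background 0 of 9 passed. Erbb3, Foxd3, Pax3, Snai2 and S100b were detected on no array, Sox10 and Kit had log2 differences of 0.46 and 0.42, and Tfap2b, Pmel, Mc1r and Tfap2a had -0.30, -0.30, -0.12 and -0.07. Choroid plexus markers had summed levels of 259, 264 and 246, against 184 in vehicle, and Kl, Sostdc1, Lmx1a and Cldn2 were detected on no array. Of 13 measured 2 passed 2-fold upward with 4-OHT, Kcne2 at 12.9-fold and Igfbp2 with a log2 difference of 1.28, and 0 passed downward, against 2 and 2 on quantile normalization or spike-in scaling. Without Kcne2 and Igfbp2 the list still summed to 252, 256 and 233, against 180 in vehicle, so this pair did not make most of the difference. The median log2 difference of the list from vehicle was 0.16 with vitamin E, 0.005 with lutein and 0.23 with 4-OHT alone. Foxj1, Prlr and Aqp1 had log2 differences of -0.998, -0.89 and -0.62 for 4-OHT against vehicle. A sum follows its brightest genes. Otx2, which is also on the list of the Mitf family, had log2 differences from vehicle of 0.50, 0.53 and 0.39 with vitamin E, lutein and 4-OHT alone. Without Sox9 and Bhlhe40, that other list summed to 278, 281 and 256, against 202 in vehicle. The part of Otx2 in either sum was not tested. Ciliary margin markers had 41.5, 41.4 and 36.9, against 33.8 in vehicle, with 2 of 16 at least 2-fold higher, and 1 of 16 on quantile normalization, spike-in scaling or normexp background. Rod markers had 1360, 976 and 736, against 1786 in vehicle, and 7 of 10 were at least 2-fold lower with 4-OHT. The part of any of these in the Dct difference was not tested.

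The supplements left several of these neighbours at other levels than 4-OHT alone did. With vitamin E, Ednrb had a log2 difference of -1.14 from 4-OHT alone on its brighter probe and -2.12 on another, Lgr5 of -1.52, Itgav of -1.18 and on its other probe -0.68, and Bhlhe40 of -1.86, and Slc7a11 was not detected, at least 5.98-fold lower. With lutein, Ednrb had -0.50 and -1.31, Lgr5 -0.29, Itgav -0.39 and 0.04, Bhlhe40 -0.91 and Slc7a11 -0.14. Rdh5, like Dct, differed less, with -0.39 with vitamin E and 0.03 with lutein. Among pigment epithelium genes beyond the members 1 of 30 passed 2-fold above 4-OHT alone with vitamin E and 3 below (1.45% and 5.64% of all genes). With lutein 0 of 29 passed in either direction (0.894% and 1.7%). With vitamin E these counts were 2 and 4 on quantile normalization, 2 and 2 on spike-in scaling, and 0 and 2 on normexp background. Rod markers lay 2-fold or more above 4-OHT alone in 7 of 10 cases with vitamin E and in 1 of 10 with lutein, and 0 lay below in both.

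**Figure D4:**
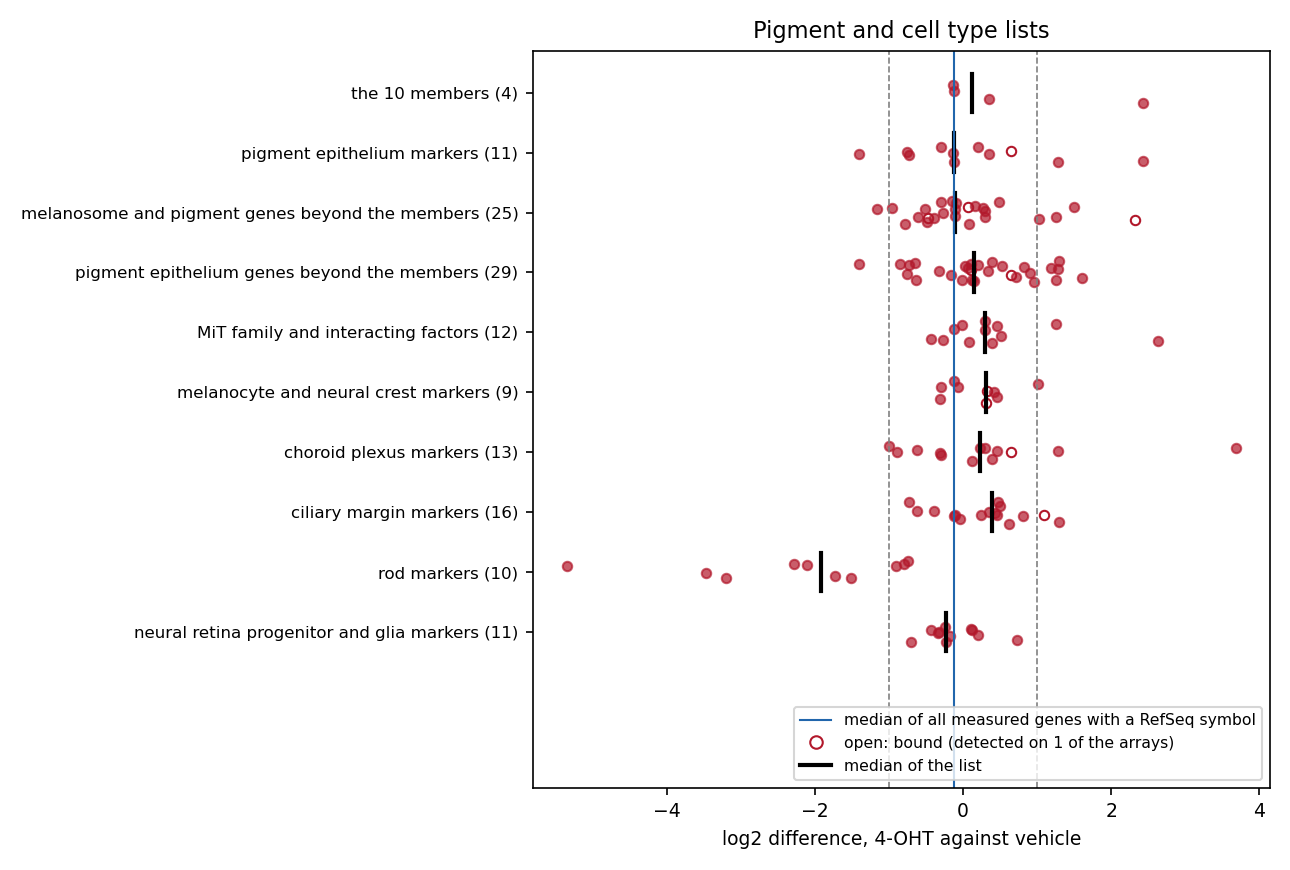
Log2 difference for 4-OHT against vehicle (horizontal axis) of every measured gene of each list, with the number of genes in brackets, black bars for list medians, dashed lines at 2-fold and a blue line for the median of all genes with a RefSeq symbol. Dct is the far-right point among the members, and the rod markers are the list that lies to the left.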

How the data were processed

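RNA of 4 samples, 1 pool of 3D-retinas per group, was hybridised to 1-colour arrays. The submitters' processing notes name Agilent Feature Extraction 10.7.3.1. The deposited values are spot intensity, which per the file headers had background subtracted and trends within the array removed, surrogates near background, and nothing done between arrays. The lutein file was deposited at 3 significant digits with 57 altered gene names, so names came from the vehicle file. The authors' value table holds the same intensity divided by 1 number per array, unlogged and uncentred; by comparison with the scanner values the divisors were 468.9 for vitamin E, 479.2 for lutein, 434.1 for 4-OHT and 494.2 for vehicle, and its column medians 0.0736, 0.0847, 0.0949 and 0.0794.

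Control spots and outlier spots (137 to 164 per array) were left out. Intensities were log2-transformed, scaled on the 75th percentile of gene spots, and averaged over spots of a probe. The probe with the highest mean stood for a gene, and every probe of a member is given. A gene was measured if a comparison's arrays held it well above background at least once. Where the other side was dim, the array's lowest such signal (or the dim one, if higher) took its place, which makes the difference a bound. The limit of 2-fold is a fixed size. With 1 array per group the number of arrays limits precision, and no test was run.

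The members, the 9 gene lists and the alternatives were chosen with earlier results of these data known. Of each list up to 4 genes with the largest 4-OHT difference were eligible to be named, plus up to 2 bounds, and the text gives a selection; of each detected member the 3 nearest genes were named. Coordinates are those of the array design (mm9). Exon and UTR annotation was not used here, and 1 gene of the melanocyte and neural crest list is not reported here, so that no summed level of that list is given. Promoters matched 7 of 10 members by symbol. In simulated data with spot noise (4-OHT against vehicle, 15041 genes), 0 of 50 genes set at 1.5-fold, 48 of 50 at 2.5-fold and 50 of 50 at 3-fold passed 2-fold, as did 0 of 14841 left unchanged. The spread between pools and between arrays was not measured and is not in the simulation, so it gives no rate of false calls for the real comparisons.

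Alternatives were scaling on the median of detected probes, quantile normalization, scaling on 8 of 10 spike-in probes, normexp background correction with offset 50 (limma 3.58.1, R 4.3.3), averaging a gene's probes, requiring detection on both arrays, dropping the filter, the value table, and limits of 1.5-fold and 4-fold; every other probe of a gene was added after seeing the data. Other steps used Python 3.11.15, NumPy 2.4.6, pandas 2.3.3 and matplotlib 3.10.9.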

Additional observations from a re-analysis of the deposited data

How the results depend on the processing

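The count of members at least 2-fold from vehicle with 4-OHT alone was 1 higher and 0 lower under every alternative run. Limits and filters moved other counts: at 1.5-fold, 1 member was higher with vitamin E than with 4-OHT, 2 with lutein than with 4-OHT and 2 with lutein than in vehicle, and 1 was lower with vitamin E than with lutein. At 4-fold 0 were higher with vitamin E than in vehicle. With no filter on dim probes 1 was higher with lutein than with 4-OHT, 2 with vitamin E than in vehicle, 2 with lutein than in vehicle, 1 with vitamin E than with lutein, and 1 lower with vitamin E than with lutein. Shares of all genes at these limits and without the filter are not given here. These counts can therefore not be set against a general rate. Of 246 single-member values under alternatives, 219 moved by less than the spot SD, 27 moved more and 0 values past 2-fold changed sign. Some settings could not move a value, such as the filters for a member detected on both arrays, or averaging for a member with 1 probe. The 219 thus include values that were bound to stay. Dct stayed between 2.27 and 2.57 for 4-OHT against vehicle, at or above 1.86 for vitamin E against vehicle, 2.21 and 2.26 for lutein against vehicle, and -0.68 and -0.27 for vitamin E against 4-OHT. Tyrp1 stayed between 0.46 and 0.88 for vitamin E and 0.51 and 0.86 for lutein against 4-OHT. Signs under 2-fold changed with the setting for Mitf (-0.28 to 0.26 for 4-OHT against vehicle, -0.19 to 0.41 for vitamin E against 4-OHT, -0.35 to 0.08 for vitamin E against lutein), for Tyr (-0.13 to 0.14 for vitamin E against 4-OHT) and for Tyrp1 (-0.09 to 0.02 for vitamin E against lutein). Spike-in scaling moved the median of all named genes by -0.16 for 4-OHT against vehicle, 0.22 for vitamin E against 4-OHT, 0.12 for lutein against 4-OHT and 0.11 for vitamin E against lutein. The share of called genes that were higher was 45.3% on spike-in scaling against 64.1% for 4-OHT against vehicle, and 47.4% on spike-in scaling and 39.2% on quantile normalization against 20.4% for vitamin E against 4-OHT. It was 49.3% on spike-in scaling against 34.4% for lutein against 4-OHT, and 22.2% on quantile normalization against 11.7% for vitamin E against lutein. No paired analysis was possible because a group held just 1 array. Why the scalings differ was not tested. Members at background are limited by signal over background and not shown to be absent.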
